A study of Homo sapiens with 6 samples.

Results

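A group of 40 genes of the amino acid stress response and the unfolded protein response was examined in the leukaemia line MV4;11, human AML cells with an MLL-AF4 rearrangement. The genes were chosen by function, with earlier results of these data known. They were split into an ATF4 branch of 26 genes (regulators, amino acid transport, amino acid and one-carbon synthesis, tRNA charging) and an ATF6/XBP1 branch of 14 genes (sensors and factors, folding, degradation). Of the 40 genes, 39 had a probe set on the array that names that gene alone, among 19775 genes measured in all. SYVN1, the ubiquitin ligase of endoplasmic reticulum degradation, was not analysed here because its probe set names a second gene as well.

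The control group was kept for 3 h in the solvent DMSO (3 arrays) and the treated group for 3 h in 25 nM CA (3 arrays), which the title gives as cortistatin A, an inhibitor of the Mediator kinases CDK8 and CDK19. All arrays come from 1 cell line, in the same serum-containing medium, on Affymetrix Human U133 Plus 2.0 arrays. The wells were plated in triplicate, and the labels do not say whether the cultures were separate. The p-values therefore reflect well-to-well spread, which may be technical. The values are deposited log2 RMA values, on which a difference of 1 stands for a doubling. The arrays measure a whole culture, so a larger share of cells with a transcript and more of it in each cell cannot be told apart.

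Cells answer a shortage of amino acids, or of folding capacity in the endoplasmic reticulum, by phosphorylating the translation factor eIF2, which slows protein synthesis but lets the transcription factor ATF4 be made. ATF4 then drives genes that import amino acids, make them and load them onto tRNA. In the endoplasmic reticulum the sensors ATF6 and ERN1, the second of which splices the messenger of XBP1, drive chaperones and the machinery that removes misfolded proteins. The arrays used here read total transcript, and neither the splicing of XBP1, the cleavage of ATF6 nor the phosphorylation of eIF2 was measured.

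Promoter sequences show which of the 40 genes carry the elements known for each branch. RefSeq promoters (GRCh38.p14, 250 bases before to 50 bases after the annotated start) matched 36 of the 40 genes, and 27305 promoters served as the background. PSPH, SHMT2, SLC7A11 and NUPR1 had no promoter entry, so theirs were not searched. The core of the C/EBP-ATF response element, the site known for ATF4, was searched as TGATGNAAN on both strands. It lay in 5 of the 36 promoters (13.9%) and in 3.67% of all promoters. The endoplasmic reticulum stress response element, known for ATF6, was searched as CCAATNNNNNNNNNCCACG on both strands and lay in 3 of the 36 (8.33%) and in 0.0806% of all. The short XBP1 core ACGTG, which reads on both strands in places, lay in 13 of the 36 (36.1%) and in 21.6% of all, and none of its 23 matches in these promoters overlapped either other motif. A match is a description of letters and not a measured site.

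The windows below are printed because they hold the matches upstream of the start in genes described in what follows. Each reads 5′ to 3′ on the strand of its gene, with the match in capitals. The first 4 hold the ATF4 type of core, which reads as its reverse complement in CHAC1, HERPUD1 and AARS1, and the last 3 the ATF6 type. The fifth match of the ATF4 type, in SLC3A2, lies after the start and is not printed.
CHAC1, chr15:40953246-40953284, plus strand: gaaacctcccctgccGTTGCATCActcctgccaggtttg
HERPUD1, chr16:56931950-56931988, plus strand: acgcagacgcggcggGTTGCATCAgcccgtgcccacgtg
ASNS, chr7:97872453-97872491, minus strand: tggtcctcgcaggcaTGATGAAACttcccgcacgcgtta
AARS1, chr16:70289671-70289709, minus strand: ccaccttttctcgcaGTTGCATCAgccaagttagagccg
HSPA5, chr9:125241376-125241424, minus strand: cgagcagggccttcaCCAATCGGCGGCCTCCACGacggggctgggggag
HSP90B1, chr12:103930201-103930354, plus strand: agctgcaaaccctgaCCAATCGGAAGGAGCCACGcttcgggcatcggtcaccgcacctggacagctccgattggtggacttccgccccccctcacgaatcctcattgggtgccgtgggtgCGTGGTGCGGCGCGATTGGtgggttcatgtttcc
XBP1, chr22:28800588-28800636, minus strand: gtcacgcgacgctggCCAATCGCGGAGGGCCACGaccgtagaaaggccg
HSP90B1 holds 2 matches of the ATF6 type in opposite directions, and HERPUD1 alone of these 7 windows also holds an XBP1 core.

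The comparison asked whether transcripts of these pathways differ after 3 h of Mediator kinase inhibition. None of the 39 measured genes passed limma at an adjusted p under 0.05 over all 19775 genes, where 0.582% of all genes passed (0.445% higher and 0.137% lower with the drug). The smallest adjusted p among them was 0.0569, shared by SLC7A11 and HERPUD1. At a limit of 0.1 these 2 genes passed, as did 1.31% of all genes. An unadjusted limma p under 0.05 was reached by 12 of the 39 (30.8%), 11 of them with higher treated values and 1 with lower, while 6.81% of all genes were higher, 5.83% lower and 12.6% either. Each of the 39 was brighter on average than the median probe set, and among the 12622 genes that bright the share at an unadjusted p under 0.05 was 18.3%.

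The groups did not overlap for 19 of the 39 genes (48.7%), 16 of them with the treated arrays above and 3 with them below. Over all genes the share without overlap was 19.4%, made up of 10.2% higher and 9.22% lower, and among the bright genes it was 25.0%. The differences were small. A fold of 1.2 was reached by 4 genes (10.3%), namely SLC7A11, VLDLR, HERPUD1 and TRIB3, and by 5.63% of all genes. The list was chosen by function with earlier results of these data known, so these counts are given as a description.

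**Figure D1:**
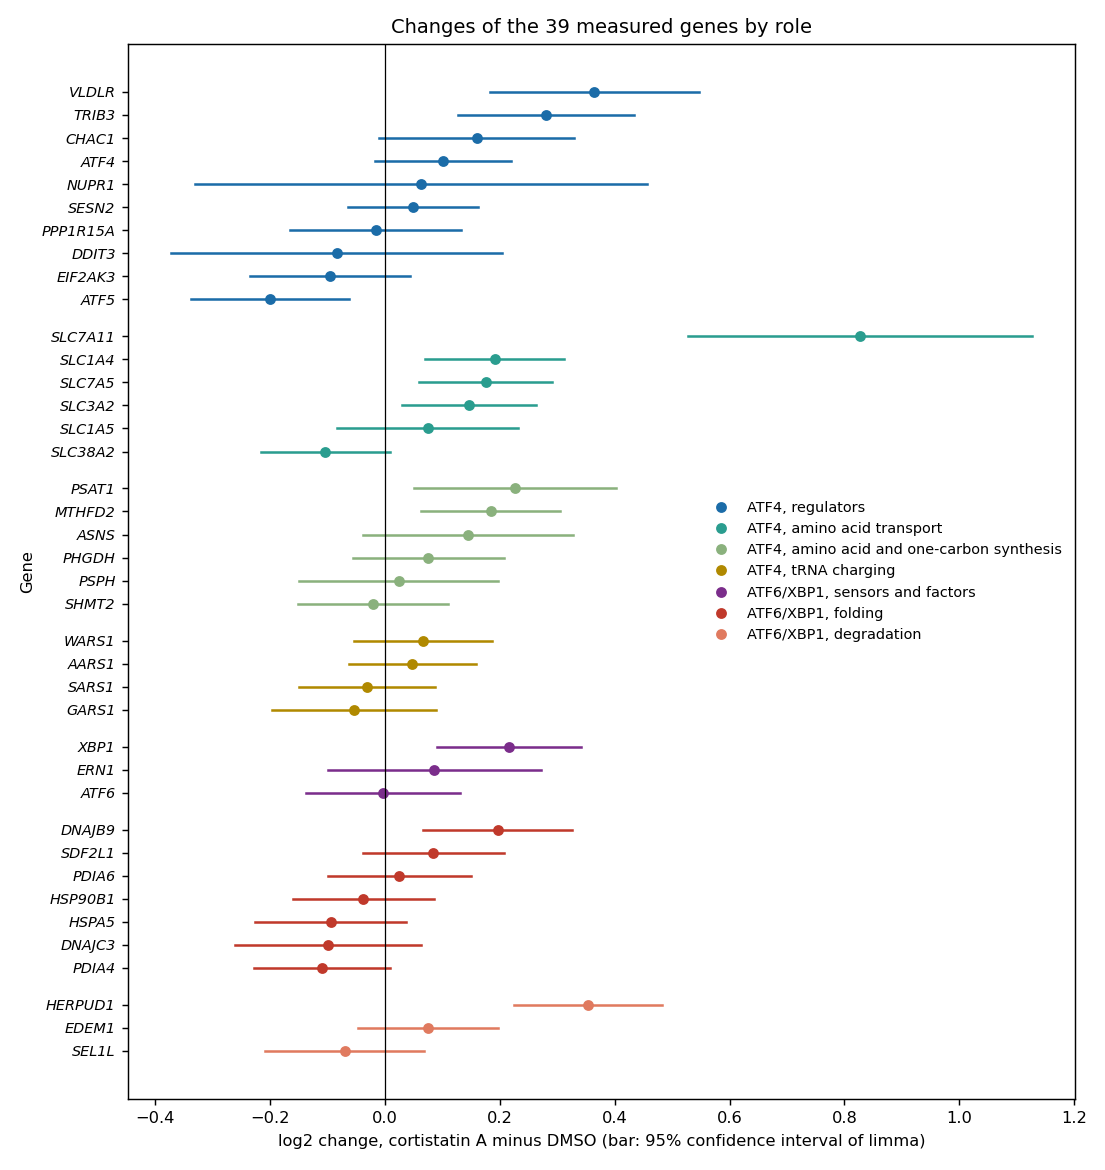
The horizontal axis gives the log2 difference (cortistatin A minus DMSO, n = 3 arrays per group) of each of the 39 measured genes, with the 95% confidence interval of limma as a bar and colours for the 7 roles. SLC7A11 stands apart at 0.83, HERPUD1 and VLDLR follow near 0.35, and the intervals of 27 genes reach across 0.

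Amino acid transporters of the ATF4 branch held the largest difference of the 40 genes. SLC7A11, the cystine and glutamate exchanger that feeds glutathione synthesis, read 5.19, 5.12 and 4.75 in DMSO and 5.72, 5.95 and 5.87 in cortistatin A. All treated arrays lay above all DMSO arrays, and DMSO replicate 3 was the lowest. The difference was 0.83 ± 0.13 (limma SE), or 1.77-fold (limma adjusted p = 0.0569, 95% confidence interval 0.53 to 1.13). By size it ranked 8 among all 19775 genes, and by p it ranked 128, with an SD of 0.24 among the DMSO arrays. Without DMSO replicate 3 the difference was 0.69 (limma adjusted p = 0.108), in a fit where 4 of all genes passed. SLC7A11 passed the threshold with dim genes left out (limma adjusted p = 0.0217), with its probe sets averaged at a smaller difference of 0.50 (limma adjusted p = 0.0479), with a further quantile normalization, with housekeeping centring, and with trend and robust variances. In these settings, in that order, 321 of 12622 genes passed, and then 76, 138, 115 and 762 of 19775. Over all alternatives of SLC7A11 the limma adjusted p was 0.000391 to 0.441.

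The other transporters stood much closer to their controls. SLC1A4, a carrier of alanine, serine and cysteine, read 9.52, 9.50 and 9.50 in DMSO and 9.73, 9.64 and 9.73 in cortistatin A. SLC7A5, the carrier of large neutral amino acids such as leucine, read 8.98, 9.01 and 8.97 against 9.19, 9.18 and 9.12. SLC3A2, the heavy chain that both SLC7A5 and SLC7A11 need at the membrane, read 7.59, 7.51 and 7.56 against 7.72, 7.69 and 7.68. For these 3 genes the groups did not overlap, with differences of 0.19 ± 0.05, 0.18 ± 0.05 and 0.15 ± 0.05 (limma adjusted p = 0.205, 0.217 and 0.286). SLC38A2, a sodium-coupled carrier of small neutral amino acids, lay on the other side at -0.10 ± 0.05 (limma adjusted p = 0.431), with every treated array (10.71 to 10.75) below every DMSO array (10.81 to 10.86). The glutamine carrier SLC1A5 was at 0.075, and its groups overlapped. Of the 6 transporters 0 passed over all genes.

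Enzymes of serine, one-carbon and asparagine synthesis were led by PSAT1 and MTHFD2. PSAT1, the aminotransferase of serine synthesis, read 9.24, 9.44 and 9.28 in DMSO and 9.55, 9.47 and 9.63 in cortistatin A, a difference of 0.23 ± 0.07 (limma adjusted p = 0.280). Its lowest treated array lay only just above its highest DMSO array. MTHFD2, the mitochondrial folate enzyme, read 10.62, 10.66 and 10.64 against 10.82, 10.78 and 10.88, a difference of 0.18 ± 0.05 (limma adjusted p = 0.217). ASNS, which makes asparagine and carries an ATF4 core in the window above, was at 0.14 ± 0.08 with overlapping groups (limma adjusted p = 0.504). The other enzymes, PHGDH and PSPH of serine synthesis and SHMT2, which turns serine into glycine, lay between -0.021 and 0.076, and none of these 3 had groups without overlap.

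The 4 tRNA synthetases of the branch, WARS1, SARS1, GARS1 and AARS1, lay between -0.054 and 0.066 and had limma adjusted p from 0.648 to 0.849. AARS1, which carries an ATF4 core, was at 0.0485 with a 95% confidence interval of -0.062 to 0.16. The intervals of all 4 reached across 0, and none of them extended beyond 0.2 in either direction. AARS1 alone of the 4 had groups that did not overlap.

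The role of regulators in the ATF4 branch, which also holds the receptor VLDLR and the enzyme CHAC1, was spread on both sides of 0. ATF4 itself read 10.57, 10.65 and 10.58 in DMSO and 10.73, 10.69 and 10.68 in cortistatin A, a difference of 0.10 ± 0.05 (limma adjusted p = 0.462). The groups did not overlap, and the 95% confidence interval ran from -0.016 to 0.22. TRIB3, a pseudokinase that restrains ATF4 and is itself a target of it, read 5.82, 5.85 and 5.70 against 5.997, 6.12 and 6.10, a difference of 0.28 ± 0.06 or 1.21-fold (limma adjusted p = 0.167). VLDLR, the very low density lipoprotein receptor, read 6.51, 6.53 and 6.31 against 6.74, 6.83 and 6.87, a difference of 0.36 ± 0.08 or 1.29-fold (limma adjusted p = 0.136). Both genes had treated arrays wholly above the controls.

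ATF5, a relative of ATF4 under the same kind of translational control, was the single gene of the 39 at an unadjusted p under 0.05 with a lower value. It read 7.13, 7.03 and 7.12 in DMSO and 6.82, 6.93 and 6.93 in cortistatin A, a difference of -0.20 ± 0.06 (limma adjusted p = 0.235). Its probe sets disagreed, since a second one was at -0.18 while the dimmer 2 were at 0.11 and 0.21. With the mean of the 4 the difference was -0.015.

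DDIT3, the factor known as CHOP that promotes death under lasting stress, read 5.41, 5.43 and 5.13 in DMSO and 5.34, 5.36 and 5.03 in cortistatin A. The groups overlapped, with a difference of -0.083 ± 0.12 (limma adjusted p = 0.827) and a wide 95% confidence interval of -0.37 to 0.20. EIF2AK3, the eIF2 kinase of the endoplasmic reticulum known as PERK, read 7.34, 7.29 and 7.22 against 7.23, 7.12 and 7.21, a difference of -0.096 ± 0.058. CHAC1, an enzyme that breaks down glutathione and carries an ATF4 core, was at 0.16 ± 0.07 (limma adjusted p = 0.421), with groups that did not overlap. The leucine sensor SESN2 (0.049), the eIF2 phosphatase subunit PPP1R15A (-0.015) and the stress protein NUPR1 (0.064) had limma adjusted p of 0.728 and above. NUPR1 was the least certain, with a 95% confidence interval of -0.33 to 0.46.

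**Figure D2:**
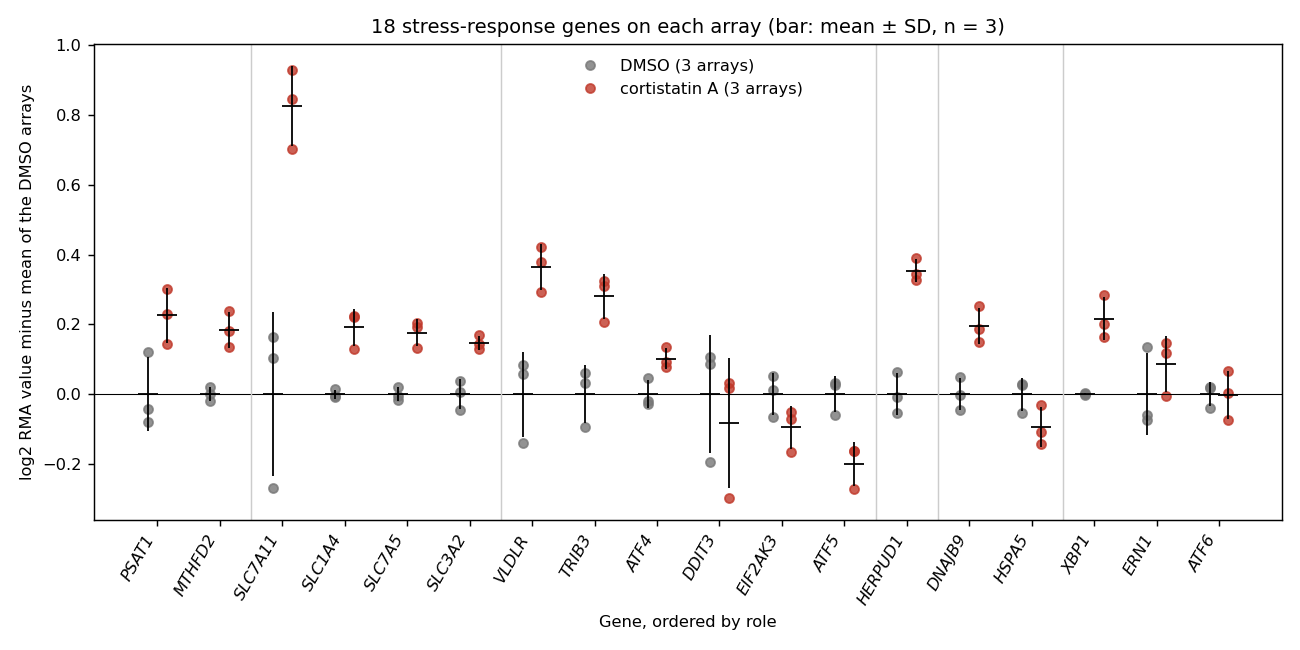
Each point is 1 array, as its log2 RMA value minus the mean of the 3 DMSO arrays of that gene, for the 18 genes described with all arrays, grouped by role and separated by grey lines. Black bars give the mean ± SD (n = 3), and the treated arrays of SLC7A11, HERPUD1, VLDLR and TRIB3 lie above all their DMSO arrays, while those of DDIT3, ERN1 and ATF6 overlap them.

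In the ATF6/XBP1 branch the sensors and factors differed from one another. XBP1, the factor activated by splicing, read 9.47, 9.47 and 9.47 in DMSO and 9.76, 9.63 and 9.67 in cortistatin A. The controls were almost identical (SD 0.0032), the treated arrays all lay above them, and the difference was 0.22 ± 0.05 (limma adjusted p = 0.184). ATF6 read 7.30, 7.36 and 7.36 against 7.40, 7.26 and 7.34, a difference of -0.0021 ± 0.056 (limma adjusted p = 0.992). ERN1, the kinase and nuclease known as IRE1, read 5.96, 5.75 and 5.77 against 5.94, 5.97 and 5.82, a difference of 0.087 ± 0.077 with overlapping groups.

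Among the folding genes, DNAJB9 stood apart from the major chaperones. DNAJB9 is a co-chaperone known as a target of XBP1. Its promoter holds 4 XBP1 core matches, counted on both strands, which overlap in pairs on opposite strands. The same core also lay in the promoters of HSP90B1, DNAJC3 and PDIA4, whose differences, given below, were negative. DNAJB9 read 7.94, 7.99 and 7.90 in DMSO and 8.13, 8.09 and 8.20 in cortistatin A. Its groups did not overlap, and the difference was 0.20 ± 0.05 (limma adjusted p = 0.217). HSPA5, the central chaperone BiP, which carries an ATF6 element in its window, read 11.75, 11.83 and 11.84 against 11.70, 11.66 and 11.78. The groups overlapped. The difference was -0.094 ± 0.055 (limma adjusted p = 0.548), and the 95% confidence interval ran from -0.23 to 0.038. HSP90B1, the chaperone GRP94 with 2 such elements, was at -0.037 ± 0.051 (limma adjusted p = 0.821). The co-chaperone DNAJC3 was at -0.099 and the disulfide isomerases PDIA4 and PDIA6 at -0.11 and 0.026. SDF2L1, a partner of HSPA5, was at 0.085. In PDIA4 every treated array lay below every DMSO array, and in SDF2L1 every treated array lay above.

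HERPUD1, a membrane protein that helps assemble the degradation complex, had the smallest p of the branch. It read 9.98, 9.93 and 10.05 in DMSO and 10.38, 10.31 and 10.33 in cortistatin A, with a clear gap between the groups. The difference was 0.35 ± 0.05 or 1.28-fold (limma adjusted p = 0.0569, 95% confidence interval 0.23 to 0.48). Its only other probe set, dim at a mean of 3.23, was at 0.12. HERPUD1 passed with dim genes left out (limma adjusted p = 0.0157), where 2.54% of genes passed, and with trend and robust variances, and its limma adjusted p over all alternatives was 2.61e-05 to 0.742. EDEM1, which hands misfolded glycoproteins to degradation, was at 0.076 and SEL1L, the partner of SYVN1, at -0.069, with limma adjusted p of 0.603 and 0.683.

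The 26 genes of the ATF4 branch had a median difference of 0.071 and the 13 measured genes of the ATF6/XBP1 branch one of 0.026, beside a median of 0.0065 over all genes. Of the 39 genes 25 were above 0 (64.1%), beside 52.4% of all genes. With housekeeping centring 28 of the 39 were, but the centring also moved the median of all genes to 0.037. The share of all genes above 0 was not computed there. Taken array by array as the median over the branch of the value minus the DMSO mean, the ATF4 branch stood at 0.0010, 0.020 and -0.015 in DMSO and at 0.043, 0.089 and 0.10 in cortistatin A. The ATF6/XBP1 branch stood at -0.014, -0.0034 and 0.017 against 0.065, -0.0070 and 0.0024, so its groups overlapped and cortistatin A replicate 1 was the highest. Without that array the median of the branch was -0.0060, and it was -0.041 when the probe sets of each gene were averaged. The difference between the branches was not tested.

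Within roles the medians were 0.16 for transport, 0.11 for synthesis, 0.056 for the regulators and 0.0090 for tRNA charging, against 0.087 for the sensors and factors, 0.076 for degradation and -0.037 for folding. These roles hold 3 to 10 measured genes each, and single genes set much of their medians.

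Several genes had more than 1 probe set, which allowed the same transcript to be read again on the same arrays. The 39 genes had 84 probe sets, 77 of them above the median of all probe sets. Of the 22 genes with at least 2 such bright probe sets, 16 had all of them on the same side of 0. The matching share over all genes was not computed, so this count is a description only. The second bright probe set of SLC7A11 was at 0.50, and its dim one at 0.18. All 3 probe sets of DNAJB9 lay between 0.17 and 0.26, both of MTHFD2 at 0.18 and 0.28, and all 5 of SLC1A4 between 0.0094 and 0.27. The other probe set of XBP1 was at 0.043, well below the brightest one.

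Probe sets on the low side agreed in sign for a further set of genes. All 3 of SLC38A2 lay between -0.25 and -0.10, all 4 of DNAJC3 between -0.39 and -0.099 and all 4 of SEL1L between -0.24 and -0.069. Both of HSPA5 were at -0.19 and -0.094. PDIA6 had its brightest at 0.026 and the other 3 between -0.075 and -0.054. With all probe sets tested as such, 0 of the 84 passed limma at an adjusted p under 0.05, where 0.180% of all 41091 single-gene probe sets did. An unadjusted p under 0.05 was reached by 27 of the 84 (32.1%), by 11.3% of all single-gene probe sets and by 13.5% of those above the median.

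**Figure D3:**
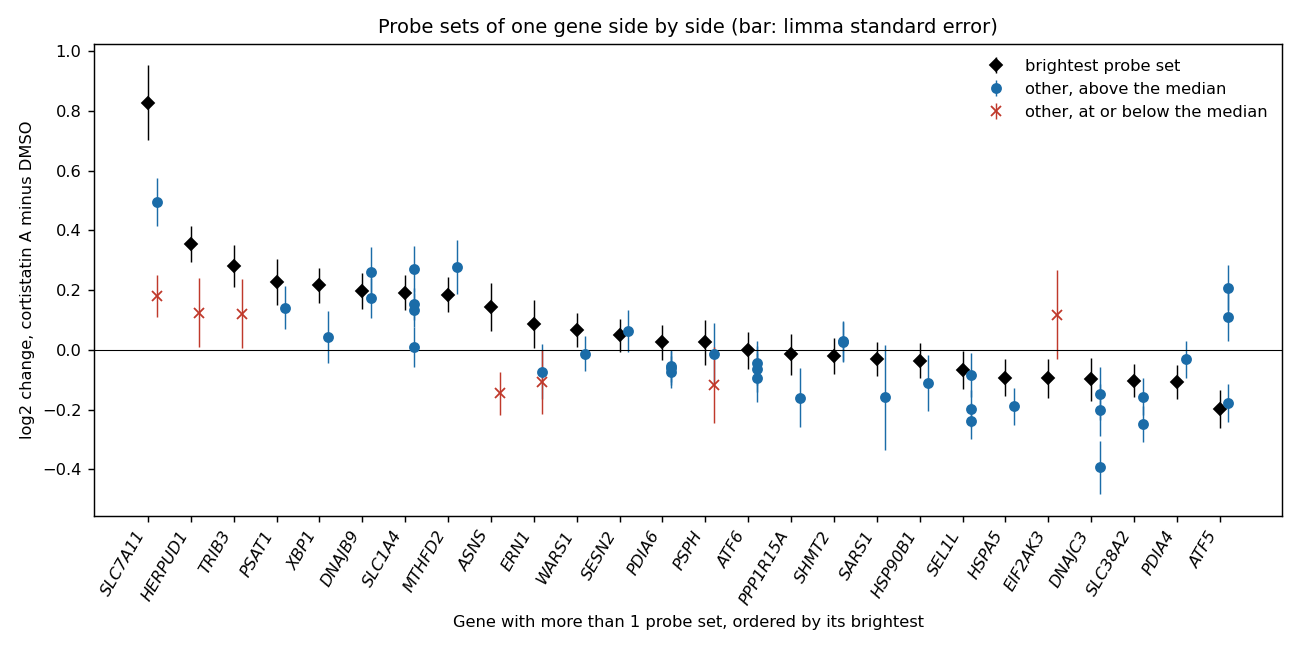
For each gene with more than 1 probe set the vertical axis gives the log2 difference (cortistatin A minus DMSO) of every probe set with its limma standard error (n = 3 arrays per group), as a diamond for the brightest, a circle for another above the median of all probe sets and a cross for one at or below it. SLC7A11, DNAJB9, SLC1A4 and MTHFD2 have all their points above 0, SLC38A2, DNAJC3, SEL1L and HSPA5 all below, and ATF5 has points on both sides.

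The number of genes passing changed most with how the variance was moderated. With trend and robust variances limma passed 10 of the 39 genes, all higher with the drug, at adjusted p of 2.61e-05 to 0.0457. These were SLC7A11, HERPUD1, VLDLR, TRIB3, XBP1, SLC1A4, SLC7A5, DNAJB9, MTHFD2 and PSAT1. Of all genes 3.85% passed in that setting, and the share among the bright genes was not computed for it. The 3′ minus 5′ signal of 3 human control transcripts, which reflects how complete the labelled transcripts are, did not overlap between the groups when averaged. This mean ran from 2.76 to 2.78 on the log2 scale in the controls and from 2.81 to 2.92 in the treated arrays. Of the 3 transcripts actin alone kept the groups apart (1.75 ± 0.06 against 1.95 ± 0.11, SD), while those of GAPDH and ISGF3A overlapped. With this index as a covariate SLC7A11 was at 0.83 (limma adjusted p = 0.441) and HERPUD1 at 0.35 (limma adjusted p = 0.429). The ATF4 branch was at a median of 0.12 there. In this setting 0 of the 39 passed, as did 0 of all 19775 genes. The index itself differed between the groups, so this fit cannot fully separate it from the drug.

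Wider lists of the same pathways held 3 genes that passed limma over all genes with higher treated values, each in a different list. Over all genes 0.445% passed as higher and 0.137% as lower. Among 16 other amino acid transporters (median 0.0099) SLC38A1, a sodium-coupled glutamine carrier and paralog of SLC38A2, rose by 0.42 ± 0.05 or 1.34-fold (limma adjusted p = 0.0275). It read 7.56, 7.55 and 7.58 in DMSO and 8.05, 7.96 and 7.95 in cortistatin A, the opposite side from SLC38A2. Among 16 other amino acid and one-carbon enzymes (median 0.017) GLUL, the glutamine synthetase, rose by 0.37 ± 0.05 (limma adjusted p = 0.0427), from 11.46, 11.44 and 11.49 to 11.89, 11.79 and 11.82. Among 20 other ATF4 targets and growth brakes (median 0.041) PMAIP1, the death-promoting protein NOXA, rose by 0.36 ± 0.05 (limma adjusted p = 0.0427), from 8.25, 8.17 and 8.20 to 8.55, 8.55 and 8.59.

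All 3 of these calls ended without any 1 of the 6 arrays (limma adjusted p from 0.111 to 0.188), with the replicate number as a block, with the index as a covariate and when the probe sets of a gene were averaged. Of all 19775 genes 0 passed with the block or the index, 0 to 4 with 1 array left out and 76 with averaged probe sets. Losing a call with the block, the index or 1 array fewer is therefore not particular to these genes. With averaged probe sets SLC38A1 was at 0.23 (limma adjusted p = 0.133), GLUL at 0.25 (limma adjusted p = 0.124) and PMAIP1 at 0.37 (limma adjusted p = 0.0534). With all probe sets tested as such the brightest ones also missed the threshold (limma adjusted p = 0.0609, 0.0896 and 0.0903 in that order). GLUL was also lost without the _x_at and _s_at types (0.11), which left only its dimmest probe set. There SLC38A1 was still called at 0.42 (limma adjusted p = 0.0492), and PMAIP1, both of whose probe sets are of the _s_at type, was not measured. Over their alternatives the limma adjusted p was 5.25e-05 to 0.370 for SLC38A1, 2.33e-06 to 0.535 for GLUL and 9.19e-05 to 0.421 for PMAIP1.

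In the same lists GDF15, a stress cytokine, was at 0.34 and DDIT4, a brake on mTORC1, at 0.27, while the autophagy gene MAP1LC3B was at -0.20. The leucine carrier SLC43A1 was at 0.24. None of these 4 passed (limma adjusted p from 0.184 to 0.303), and GDF15 was close to the median of all probe sets at 3.65 to 3.76 in DMSO. Of the list of 20 targets, 5 were higher and 1 lower at an unadjusted p under 0.05 (30.0%), beside 6.81% higher and 5.83% lower over all genes and 18.3% in either direction among the bright ones.

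The remaining lists held 0 genes past the threshold, and their counts at an unadjusted p under 0.05 are to be read beside the 12.6% of all genes and the 18.3% of bright genes there. Among 22 eIF2 kinases, phosphatase parts and partner factors (median -0.0012) 0 were higher and 3 lower at an unadjusted p under 0.05, led by CREB3L2 (-0.19), a relative of ATF6, and by EIF2AK2 (-0.25), the eIF2 kinase that senses double-stranded RNA. The 14 other cytosolic tRNA synthetases had a median of 0.010 and lay between -0.056 and 0.10, with 0 at an unadjusted p under 0.05, as with the 4 of the ATF4 branch. Among 15 mitochondrial ones (median -0.0055) MARS2 stood at 0.24 and AARS2 at -0.26.

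Genes of folding and entry into the endoplasmic reticulum (34 measured) had a median of -0.014, with 2 higher and 1 lower at an unadjusted p under 0.05, SEC62 of the translocation channel at 0.20 and the oxidase ERO1A at -0.20 among them. Genes of degradation there (21 measured) had a median of -0.020, with 1 higher and 3 lower (19.0%), near the share of the bright genes. The higher one was RNF5 (0.23), dim at means of 3.06 and 3.29, and the lower ones were FAF2 (-0.28), ERLEC1 (-0.17) and EDEM3 (-0.13). The 10 genes of XBP1 and ATF6 processing had a median of -0.0071. NRF2 targets, a programme that is also known to drive SLC7A11, had a median of -0.019 over 19 genes, with the factor NFE2L2 at 0.13 and the glutathione enzyme GCLC at -0.26.

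**Figure D4:**
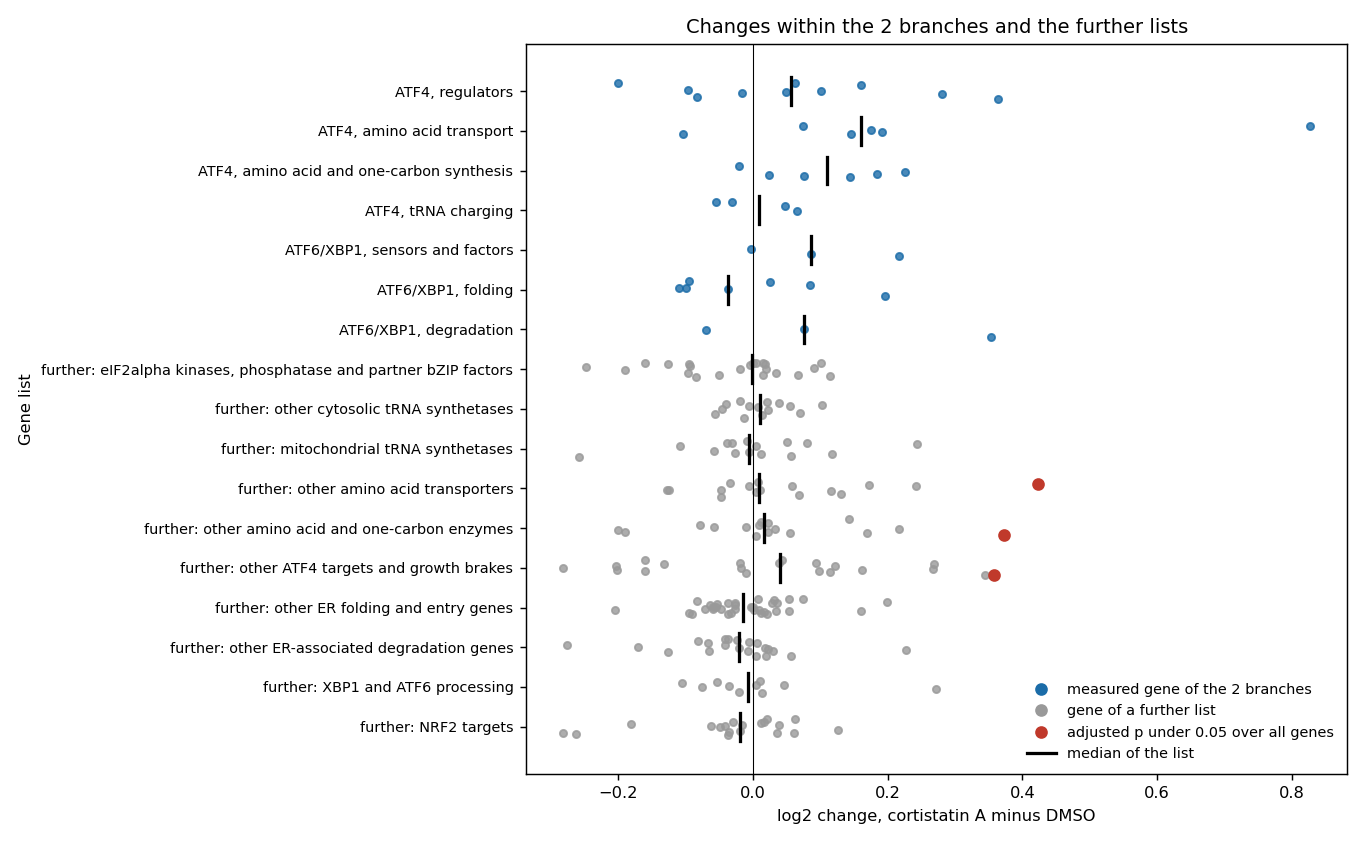
Each point is a gene, placed by its log2 difference (cortistatin A minus DMSO, n = 3 arrays per group), in the 7 roles of the 2 branches (blue) and 10 further lists (grey), with black lines for the medians and red points for genes at a limma adjusted p under 0.05 over all genes. SLC38A1, GLUL and PMAIP1 are the red points, and SLC7A11 lies farthest right at 0.83 without passing.

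The cell type was checked against its markers. Of 12 measured myeloid and leukaemia markers 10 lay above the median of all probe sets, LYZ highest at 12.41, while CD14 and FCGR1A, both surface markers of mature monocytes, did not. As 12622 of all 19775 genes lay above it too, this median is a weak check of cell type. Summed over the 12 genes the level lay at 81.1 to 81.8 in the controls and 82.0 to 83.0 in the treated arrays. One of them, the myeloid transcription factor CEBPA, rose by 0.42 (limma adjusted p = 0.0248). That call was lost with the replicate number as a block (limma adjusted p = 0.210), with the index as a covariate (limma adjusted p = 0.374) and without any 1 of the 6 arrays (limma adjusted p from 0.103 to 0.130). Among all genes 0 passed with the block or the index, and 0 to 4 with 1 array left out. Of the 26 measured markers of other cell types (B, T, NK, erythroid, megakaryocyte, epithelial and fibroblast) 16 also lay above that median, among them NKG7 at 7.88, KRT18 at 7.11, CD4 at 6.21 and COL1A1 at 6.11. EPCAM was the lowest at 1.58. Of the 26, 0 passed limma between the groups over all genes and 1 had an unadjusted p under 0.05. The part of the myeloid markers in the results was not tested.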

How the data were processed

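RNA from 6 wells was measured on single-colour arrays, and the authors deposited 1 log2 value per probe set and array. RMA and the affy package are named, with no version, per the submitters' processing notes. RMA in its usual form removes background, makes the arrays' distributions alike and summarises probes, so a shift of all transcripts one way would be lost and small differences near background are compressed. The values ran from 0.81 to 13.84 with array medians of 3.74 to 3.77. Precision is limited by the number of arrays.

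Of 54675 probe sets 62 are controls, 41091 name 1 gene, 1801 name several and 11721 are unnamed here. Symbols were updated through RefSeq gene identifiers for 41037. Each of 19775 genes was represented by its brightest probe set, averaged over all arrays. No 2 arrays shared more than 678 identical values. Groups come from the sample titles. Genes were compared with limma 3.58.1 in R 4.3.3 (group as the only term, two-sided, 4 residual and 2.68 prior degrees of freedom, Benjamini-Hochberg over all genes), with no filter on dim genes. The step was tested on simulated data with normal noise, set to each gene's moderated limma spread. The 200 changed genes were drawn only from those above the median probe set. It recovered 10% of changes of 1.2-fold and 92% of changes of 1.5-fold there. These shares do not cover dim genes or genes with a wider spread, and SLC7A11 at 1.77-fold did not pass in the real arrays. Most differences of 1.2-fold or less would therefore be missed. Log2 differences are cortistatin A minus DMSO with limma standard errors, and intervals are 95%.

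The 40 genes, the wider lists and the alternatives were chosen with earlier results of these data known. All arrays are given for the 12 genes with the smallest p and for 7 regulators and the chaperone HSPA5, fixed by name (18 genes in all), and for the 3 passing genes of the wider lists. The other genes named from a wider list come from its 4 with the smallest p. Alternatives tried were a block for the replicate number, removal of dim genes (average no higher than 3.75, the median probe set), averaged probe sets per gene, no _x_at or _s_at types, further quantile normalization, centring on 24 measured housekeeping genes, trend and robust variances, the 3′ minus 5′ index of 3 human control transcripts as a covariate, each array left out, an adjusted p under 0.1 and all probe sets. Motifs were searched in RefSeq promoters (GRCh38.p14). A genome build for the arrays is not stated in these sources.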

Additional observations from a re-analysis of the deposited data

How the results depend on the processing

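The count of genes passing over all genes, 115, was 0 with the replicate block and with the 3′ minus 5′ index as covariate, where 2243 and 1934 genes had an unadjusted limma p under 0.05. It was 321 without dim genes, 76 with averaged probe sets, 54 without the _x_at and _s_at types, 138 with a further quantile normalization, 762 with trend and robust variances, 260 at an adjusted p under 0.1, 74 with all probe sets, and 0 to 4 with 1 array left out. The labels do not say whether replicate numbers pair the wells. Correlations of same-numbered deviations from the group means were -0.055, 0.009 and 0.016. They show no visible shared shift but cannot settle whether the wells were paired. With the block 0 of the 39 genes passed. Passing genes among the 39, 0 in the main comparison, were 2 without dim genes and at an adjusted p under 0.1 (SLC7A11 and HERPUD1), 1 with the mean of all probe sets, with a further quantile normalization and with housekeeping centring (SLC7A11), 10 with trend and robust variances, and 0 to 0 with 1 array left out.

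The ATF4 branch median was 0.10 with housekeeping centring, 0.12 with the index and 0.052 to 0.097 with 1 array left out. That of the ATF6/XBP1 branch was 0.056 with housekeeping centring, -0.041 with the mean of all probe sets and -0.0060 to 0.052 with 1 array left out. Housekeeping centring moved the median of all genes from 0.0065 to 0.037 and the split of passing genes from 88 higher and 27 lower to 101 and 14. Of the 18 genes given with all arrays, 14 kept their sign under every alternative run for them.

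Signs turned for the following genes, none of which passed in the setting that turned them. CREB3L2 (-0.19) passed in another, that of trend and robust variances, at a limma adjusted p of 0.022. With the mean of all probe sets ERN1 was at -0.032, EIF2AK3 at 0.011, ASNS at -0.00070, PSPH at -0.036, SHMT2 at 0.012, PDIA6 at -0.041 and MTHFD1L at 0.017. Without the _x_at and _s_at types ASNS was at -0.15, SHMT2 at 0.026, CREB3L2 at 0.043 and MTHFD1L at 0.22. With a further quantile normalization ATF6 was at 0.0042 and PPP1R15A at 0.0094. With housekeeping centring ATF6 was at 0.028, SHMT2 at 0.0097 and PPP1R15A at 0.015. With the index DDIT3 was at 0.17, PSPH at -0.14 and SLC1A5 at -0.019. With 1 array left out the range was -0.036 to 0.034 for ATF6, -0.18 to 0.024 for DDIT3, -0.035 to 0.082 for PSPH, -0.046 to 0.0091 for SHMT2, -0.098 to 0.18 for NUPR1, -0.060 to 0.024 for PPP1R15A and -0.0060 to 0.052 for PDIA6. The causes were not tested.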
